A study of Mus musculus with 6 samples.

Results

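Receptor-type protein tyrosine phosphatases were followed as a group of 10 genes (Ptpra, Ptprc, Ptpre, Ptprf, Ptprg, Ptprj, Ptprk, Ptprm, Ptpro and Ptprs) among the 24063 gene symbols counted in mouse haematopoietic progenitors. Ptprf was chosen by its measured log2 fold change between the groups, and the other 9 were chosen as members of its family, whatever their values. The difference of Ptprf is therefore given as a description, without a test. All 10 were rows of the count table, and 8 had enough reads to enter the test across genes.

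The cells were LSK cells of bone marrow, which lack lineage markers and carry Kit and Sca1, the fraction that holds haematopoietic stem cells and early progenitors. Knockout mice were Arid2fl/fl:MxCre+ and control mice were MxCre+, labelled Arid2wt in the sample titles. Both were on a C57/BL6 background, with 3 libraries in each group. Arid2 encodes a subunit of the PBAF chromatin remodelling complex. Every mouse, controls included, carried the interferon-inducible Mx1-Cre transgene and was given pIpC at 6 to 8 weeks of age, and cells were sorted 6 weeks later. Mx1-Cre is active in many cell types besides blood, and the labels do not give the fraction of sorted cells in which Arid2 was deleted. The labels do not say whether the libraries came from separate animals, so p-values here reflect only how much these libraries vary, which may be partly technical. Sex-linked genes, given below, place the controls in at least 2 animals.

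Receptor-type tyrosine phosphatases are membrane proteins that remove phosphate from tyrosine residues inside the cell, and so work against tyrosine kinases or, by clearing an inhibitory phosphate, switch Src family kinases on. Ptprc, known as CD45, is on the surface of all nucleated blood cells. Ptprf (LAR) and Ptprs (RPTP sigma) belong to a branch with immunoglobulin and fibronectin domains outside the cell that binds heparan and chondroitin sulphate chains of proteoglycans. Ptprs is known in blood as a receptor that restrains the engraftment of transplanted stem cells.

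The catalytic centre is the feature all of these proteins share, and its coding sequence is shown to let the members be compared. A search of the longest complete coding transcript of each gene (GENCODE M21, mm10) looked for a run of 8 codons that opens with histidine and the catalytic cysteine and closes with glycine and arginine. It found 16 such runs, at least 1 in each of the 10 genes. Ptpra, Ptpre, Ptprf, Ptprk, Ptprm and Ptprs had 2, and Ptprc, Ptprg, Ptprj and Ptpro had 1. The runs were matched by sequence alone, so their number does not give the number of phosphatase domains or of active ones. The first run of each gene is given 5′ to 3′ with the cysteine codon in capitals.
Ptprf: catTGCagtgcgggtgtggggcgc
Ptprs: cacTGCagcgcgggtgtggggcgc
Ptpro: cacTGCagtgcgggtgtgggacgg
Ptpra: cacTGCagtgcaggtgtagggcgc
Ptprc: cacTGCagtgctggtgttgggcgt
Ptprk: cacTGCagtgctggtgctgggcgc
Ptpre: cacTGTagcgcgggcgtgggtcgg
Ptprg: cacTGCagcgctggtgtgggcagg
Ptprj: catTGCagtgctggggttggaagg
Ptprm: cacTGCagtgctggagcaggaagg
Against Ptprf, the run of Ptprs differed at 2 of 24 bases and that of Ptprm at 8. All 16 runs were interrupted by an exon boundary after the same base, the eighth. In Ptprf the first run lies on the minus strand at chr4:118212234-118212334 (mm10), in coding exons 24 and 25 of 31, and in Ptpro on the plus strand at chr6:137450018-137454600, in coding exons 24 and 25 of 26.

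Family resemblance bears on the counts, because a read that fits 2 genes may be split or dropped. The longest stretch identical between transcripts of Ptprf and those of any other receptor phosphatase gene was 27 bases, shared with Ptprs (ggcaagtacgagtgtgtggccaccaac) within the coding sequence. Ptpro shared at most 18 bases with another member of the family. The sources used here do not say how such reads were counted. Of the genes that overlap these loci in the annotation, the count table also held 4930473A02Rik, antisense within Ptpra, 5830432E09Rik, antisense to Ptpre, and microRNA genes inside Ptpre, Ptprf, Ptprm and Ptprs. The sources do not give the strand setting of the counting either, so reads of Ptpra and Ptpre cannot be told apart from those of their antisense partners. Annotated antisense genes without a row in the count table also overlap Ptprg, Ptprj and Ptprm, and the same limit applies there.

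The 6 libraries held 12408966 to 28185678 counted reads, of which 13894 to 29311 fell on the 10 genes. Arid2 had 150.2 to 162.5 CPM (read counts scaled to the TMM-adjusted library size) in the knockout libraries and 148.4 to 165.1 CPM in controls, so whole-gene counts do not show the deletion, and directions below rest on the labels. Of the sort gate, Kit had 426.3 to 446.0 CPM in knockout and 493.3 to 655.3 CPM in control libraries, and Ly6a, which encodes Sca1, 12.4 to 15.3 CPM against 18.2 to 22.3 CPM. Ly6a passed the test across genes as lower (log2 fold change −0.56, edgeR adjusted p = 0.0378), but not with any 1 library left out. Kit did not pass (−0.34, edgeR adjusted p = 0.0814). The sexes were unequal. Xist, the RNA of the inactive X chromosome, marked all 3 knockout libraries and control replicate 2 as female (1919 to 2021 CPM), and control replicates 1 and 3 as male (6.27 and 11.4 CPM). Control replicate 2 is thus the sole library that allows a comparison within 1 sex, and its value is given beside each member described.

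Per length of transcript, Ptprc was the most abundant member and Ptprg the least in controls. Ptprc stood first at 74.0 ± 3.5 CPM per kb (SD, n = 3), followed by Ptpre at 39.8 ± 2.0, Ptprs at 32.9 ± 1.9, Ptpra at 28.1 ± 1.6 and Ptprj at 6.88 ± 0.64 CPM per kb. Ptpro had 2.84 ± 0.084, Ptprf 0.639 ± 0.329, Ptprk 0.168 ± 0.093, Ptprm 0.160 ± 0.057 and Ptprg 0.0102 ± 0.0118 CPM per kb. The ranges of neighbours in that order did not overlap, except those of Ptprk and Ptprm. With the length of all annotated exons in place of the longest coding transcript, Ptpre ranked above Ptprc. In knockout libraries Ptprs and Ptpra overlapped (26.9 ± 2.4 and 26.3 ± 0.69 CPM per kb), Ptprm (0.347 ± 0.251) lay above Ptprf (0.0788 ± 0.0292), and Ptprf overlapped Ptprk (0.0620 ± 0.0180). The plot of levels per length shows Ptprf above Ptprk and Ptprm in controls and below Ptprm in knockout libraries.

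**Figure D1:**
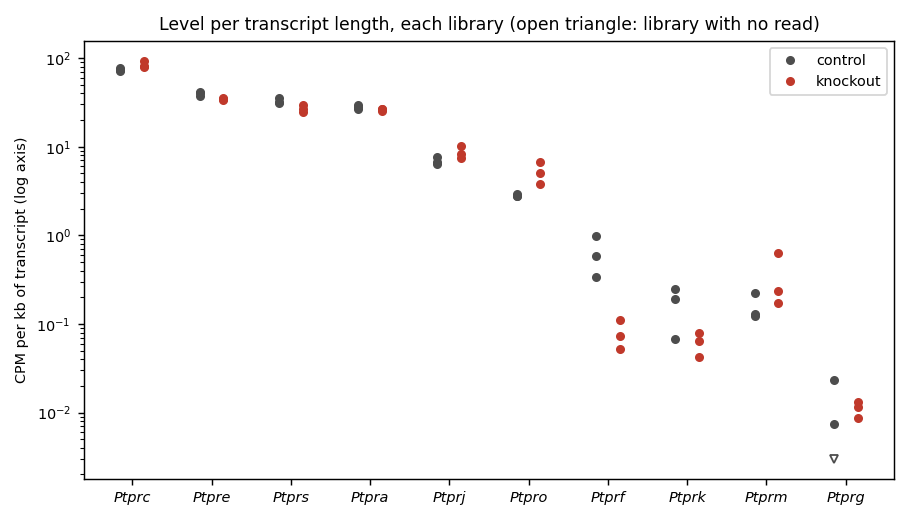
Level of each of the 10 genes in CPM per kb of the longest coding transcript, on a log axis, with 1 point per library (grey, control; red, knockout) and an open triangle for the library without a read. Ptprc, Ptpre, Ptprs and Ptpra sit between 24.5 and 93.6 CPM per kb, and Ptprg stays at or under 0.0231 CPM per kb.

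Ptprf, the LAR phosphatase (ENSMUSG00000033295, chromosome 4, 118208213 to 118291405, minus strand), had 0.85, 0.40 and 0.56 CPM in knockout replicates 1 to 3 and 2.58, 4.51 and 7.58 CPM in control replicates 1 to 3. These levels rest on 16, 10 and 7 reads against 42, 127 and 110 reads. Every knockout library was below every control library, and female control replicate 2 lay between the male controls. The mean was 0.604 ± 0.224 CPM against 4.89 ± 2.52 CPM (SD, n = 3 each), which is 8.09-fold lower, or −3.02 ± 0.47 (SE) on the log2 scale. The controls themselves spanned a wide range, and without control replicate 3, the highest, the value was −2.58. Against control replicate 2 alone, in female libraries, the difference was −2.91 ± 0.43 (SE) on that scale. Ptprf reached the filter on low counts (0.557 CPM) in 3 control and 2 knockout libraries. Whether fewer cells carried Ptprf RNA or each cell held less cannot be told apart in these bulk samples.

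**Figure D2:**
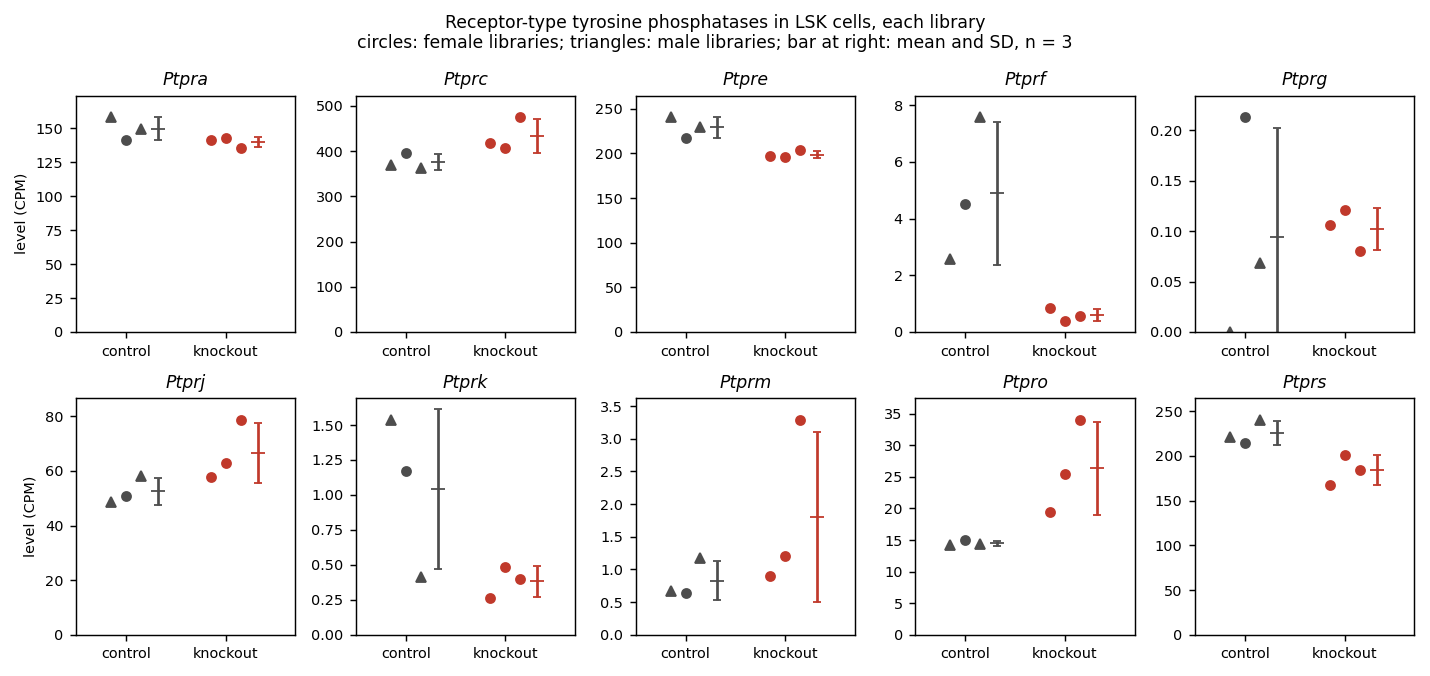
Level in CPM of each member in each library, with circles for female and triangles for male libraries and the mean and SD (n = 3) beside them. Ptprf is at or below 0.85 CPM in all 3 knockout libraries and at or above 2.58 CPM in all controls, whereas Ptpro is at or above 19.5 CPM in knockout and at or below 14.96 CPM in control libraries.

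Ptprs, the nearest relative of Ptprf in this group, was far more abundant and differed little. It had 167.9, 201.3 and 184.0 CPM in knockout and 221.2, 214.8 and 240.3 CPM in control libraries. The groups did not overlap, but the log2 fold change was −0.29 (SE 0.08), and it did not pass the test (edgeR adjusted p = 0.0628, 95% confidence interval −0.47 to −0.10). Ptprs passed with no filter on low counts (edgeR adjusted p = 0.0349) and in DESeq2 (adjusted p = 0.0272), and its value was −0.22 with a term for sex (edgeR adjusted p = 0.518). The level of Ptprs was 1.22-fold lower, beside 8.09-fold for Ptprf, and the difference between these 2 ratios was not tested.

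Of the 7 tested members other than Ptprf, 1 was past the threshold, Ptpro. It encodes GLEPP1, a receptor with a single phosphatase domain first known from kidney podocytes. Ptpro had 19.5, 25.4 and 34.0 CPM in knockout libraries and 14.1, 14.96 and 14.3 CPM in controls, from 208 to 631 reads per library. All knockout libraries were above all controls, and the spread lay almost wholly within the knockout group. Ptpro rose 1.81-fold, from 14.5 ± 0.43 to 26.3 ± 7.3 CPM (SD, n = 3 libraries in each group). On the log2 scale this was 0.85 ± 0.19 (SE, adjusted p = 0.0304 by edgeR). The call was lost when single libraries were left out, with log2 fold changes of 0.88, 0.64, 0.84, 0.89 and 0.84 without knockout replicates 2 and 3 and control replicates 1, 2 and 3 (edgeR adjusted p = 0.0918, 0.0571, 0.0937, 0.0609 and 0.0543). With a term for sex the value was 0.81 (SE 0.28, edgeR adjusted p = 0.335). Among all genes tested 8.42% passed, 3.85% higher and 4.58% lower in knockout libraries, and the 7 had a median log2 fold change of 0.21 against 0.00 for all genes (0.06 with Ptprf).

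Ptprc, which clears the inhibitory phosphate of Src family kinases in leukocytes, had 418.3, 405.8 and 475.0 CPM in knockout and 368.2, 395.7 and 361.9 CPM in control libraries. The groups did not overlap, yet female control replicate 2 was the control nearest to the knockout libraries, and the log2 fold change of 0.21 (SE 0.08) did not pass (edgeR adjusted p = 0.143). Its reads made up 39.2% to 42.6% of the reads of the 10 genes in knockout libraries and 34.1% to 38.0% in controls. Isoforms of Ptprc, which differ by alternative exons, cannot be separated in counts per gene.

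Ptpra and Ptpre encode the short-ectodomain pair of the family, both known to activate Src kinases. Ptpra had 135.6 to 142.6 CPM in knockout and 141.4 to 158.1 CPM in control libraries. The groups overlapped (log2 fold change −0.10, 95% confidence interval −0.24 to 0.05, edgeR adjusted p = 0.395), and the value was −0.02 with a term for sex. Ptpre had 197.4, 195.5 and 203.3 CPM against 240.7, 217.3 and 229.4 CPM. Its groups did not overlap and the knockout libraries were close together, but the log2 fold change of −0.21 (SE 0.06) missed the threshold (edgeR adjusted p = 0.0771). In that pair the female control was the lowest control for both genes, and the value of Ptpre was −0.13 with a term for sex.

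Ptprj, the receptor CD148 of platelets and leukocytes, had 57.7, 63.0 and 78.7 CPM in knockout and 48.7, 50.8 and 58.0 CPM in control libraries. Control replicate 3 reached just above knockout replicate 1, and the log2 fold change of 0.34 (SE 0.12) did not pass (edgeR adjusted p = 0.123). Knockout replicate 3 held the highest level of 4 members, Ptprc, Ptprj, Ptprm and Ptpro. Without that library their log2 fold changes were 0.13, 0.20, 0.39 and 0.64.

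The adhesion phosphatases Ptprm and Ptprk bind their own kind on neighbouring cells and were close to the limit of the depth. Ptprm had 0.90, 1.21 and 3.29 CPM in knockout and 0.68, 0.64 and 1.17 CPM in control libraries, from 11 to 41 reads. The groups overlapped, and the log2 fold change of 1.08 (SE 0.54, edgeR adjusted p = 0.258) rested largely on knockout replicate 3, with 0.39 without it. Ptprk had 5, 12 and 5 reads in knockout and 25, 33 and 6 reads in control libraries, or 0.26, 0.48 and 0.40 CPM against 1.54, 1.17 and 0.41 CPM. It did not enter the test, and with no filter on low counts its log2 fold change was −1.44 (SE 0.55, edgeR adjusted p = 0.136). Ptprg, a receptor with a carbonic anhydrase-like domain, had 2, 3 and 1 reads against 0, 6 and 1. The control library without a Ptprg read still allows up to 0.184 CPM (3 reads, counting error alone), so a difference in Ptprg was not detectable at this depth.

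Of the 8 tested members, 5 had groups that did not overlap, Ptprc and Ptpro with knockout libraries higher and Ptpre, Ptprf and Ptprs with knockout libraries lower. Over all genes tested 31.2% did not overlap, 15.1% with knockout libraries higher and 16.1% with knockout libraries lower. Ptprf was chosen for its difference, which leaves 4 of 7.

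All 11 other receptor phosphatase genes had at least 1 read, and 4 were tested. Ptpru, an adhesion relative of Ptprm and Ptprk, rose 1.76-fold, with 28.6, 24.3 and 23.3 CPM in knockout and 15.4, 17.4 and 10.1 CPM in control libraries (0.82 ± 0.19 SE on the log2 scale, adjusted p = 0.0374 by edgeR). Ptprr, which acts on MAP kinases, had 0.32, 0.32 and 0.24 CPM in knockout libraries, or 3 to 8 reads each, and 1.72, 2.17 and 0.83 CPM in controls (−2.40 ± 0.46 SE on the log2 scale, adjusted p = 0.0202 by edgeR). It reached the filter on low counts (0.557 CPM) in 3 control and 0 knockout libraries, so it was tested only because its controls were higher, and its call supports nothing. Neither group pair overlapped. Ptpru lost its call without any 1 knockout library or control replicate 1 (0.72, 0.85, 0.87 and 0.87), and was 0.55 with a term for sex. Ptprr lost it without any 1 knockout library, control replicate 1 or control replicate 2 (−2.44, −2.47, −2.31, −2.36 and −2.06), and was −2.83 with a term for sex (edgeR adjusted p = 0.0853).

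Ptprv (14.3 to 20.0 CPM against 18.3 to 19.9 CPM) had a log2 fold change of −0.12 (edgeR adjusted p = 0.629). Ptprn, a protein of secretory granules, had 0.73 to 0.95 CPM against 0.14 to 0.68 CPM (log2 fold change 1.01, edgeR adjusted p = 0.296). Ptprb, Ptprd, Ptprh, Ptprn2, Ptprq, Ptprt and Ptprz1 had at most 14 reads in any library and were not tested.

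Non-receptor tyrosine phosphatases, which act in the cytoplasm, served as the nearest other family. Of 17 listed, 15 were tested, of which 2 were higher, 1 was lower and 12 did not pass, with a median log2 fold change of −0.04. The shares over all genes tested were 3.85% higher and 4.58% lower. Ptpn22, a phosphatase of leukocytes, rose to 66.6 ± 4.2 from 52.4 ± 3.4 CPM (SD, n = 3 per group, 0.35 on the log2 scale, edgeR adjusted p = 0.0316), and Ptpn1, known as PTP1B, to 151.8 ± 0.76 from 126.7 ± 8.7 CPM (0.26, edgeR adjusted p = 0.0466). Ptpn14 fell by 1.67 on the log2 scale, with 2.54, 4.23 and 4.09 CPM in knockout and 6.15, 9.63 and 18.9 CPM in control libraries (edgeR adjusted p = 0.0415). As in Ptprf, control replicate 3 had the highest level of Ptpn14 and control replicate 1 the lowest of the controls. Each of these 3 calls held in 1 of 6 fits with a library omitted, with log2 fold changes of 0.29 to 0.40 for Ptpn22, 0.21 to 0.31 for Ptpn1 and −1.97 to −1.14 for Ptpn14. The call was kept without control replicate 1 for Ptpn22 and Ptpn14 and without control replicate 2 for Ptpn1. Ptpn6, known as SHP-1, had 0.28 and did not pass (edgeR adjusted p = 0.121).

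**Figure D3:**
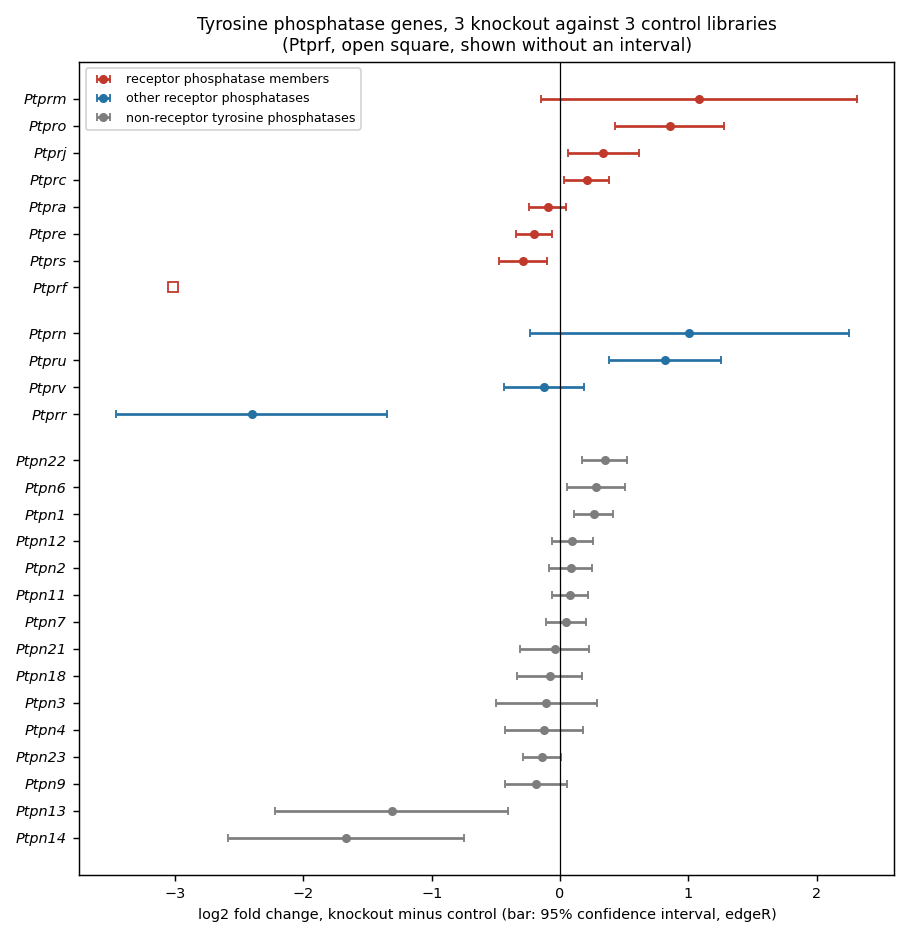
Log2 fold change, knockout minus control, of every tested tyrosine phosphatase gene with its 95% confidence interval from edgeR (red, the members; blue, other receptor types; grey, non-receptor types), Ptprf as an open square without interval. Ptprf at −3.02, Ptprr at −2.40 and Ptpn14 at −1.67 lie farthest to the left, and the abundant members lie between −0.29 and 0.34.

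Ligands of Ptprf and Ptprs changed in both directions. Both receptors bind heparan sulphate proteoglycans, which include the glypicans and syndecans. Of 27 listed ligand genes 13 were tested, with 3 higher, 4 lower and 6 short of the threshold, with a median log2 fold change of 0.38. Over all genes tested 3.85% were higher and 4.58% lower, and the list was chosen with earlier results of these data known. The syndecan genes Sdc2, Sdc3 and Sdc4 rose, and Sdc1 did not pass (0.19 on the log2 scale, edgeR adjusted p = 0.545). Sdc2 had 19.3, 16.1 and 16.9 CPM in knockout and 5.41, 7.32 and 7.37 CPM in control libraries (1.37 ± 0.16 SE on the log2 scale, adjusted p = 0.00377 by edgeR). Sdc3 (1.30, edgeR adjusted p = 0.0322) ran from 99.8 to 227.8 CPM in knockout libraries against 46.1 to 75.4 CPM, and Sdc4 had 0.88 (edgeR adjusted p = 0.0277).

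The glypican genes Gpc3 and Gpc2 fell, as did Lamc1, a laminin chain, and Agrn, the proteoglycan agrin, which is named because it completes this count. Gpc3 had 1.43, 1.09 and 0.64 CPM against 4.30, 6.01 and 6.47 CPM (−2.37 ± 0.31 SE on the log2 scale, adjusted p = 0.00528 by edgeR). Gpc2 had −0.64 (edgeR adjusted p = 0.00976), Lamc1 −1.63 (edgeR adjusted p = 0.00346) and Agrn −0.40 (edgeR adjusted p = 0.0323). Gpc1, the most abundant glypican gene by reads, had 0.43 and did not pass (edgeR adjusted p = 0.327). Sdc2, Gpc3, Gpc2 and Lamc1 were past the threshold whichever library was omitted. Sdc3 and Sdc4 were past it without knockout replicate 1 or control replicate 3 alone, with ranges of 0.98 to 1.56 and 0.75 to 1.04 over the 6 fits.

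**Figure D4:**
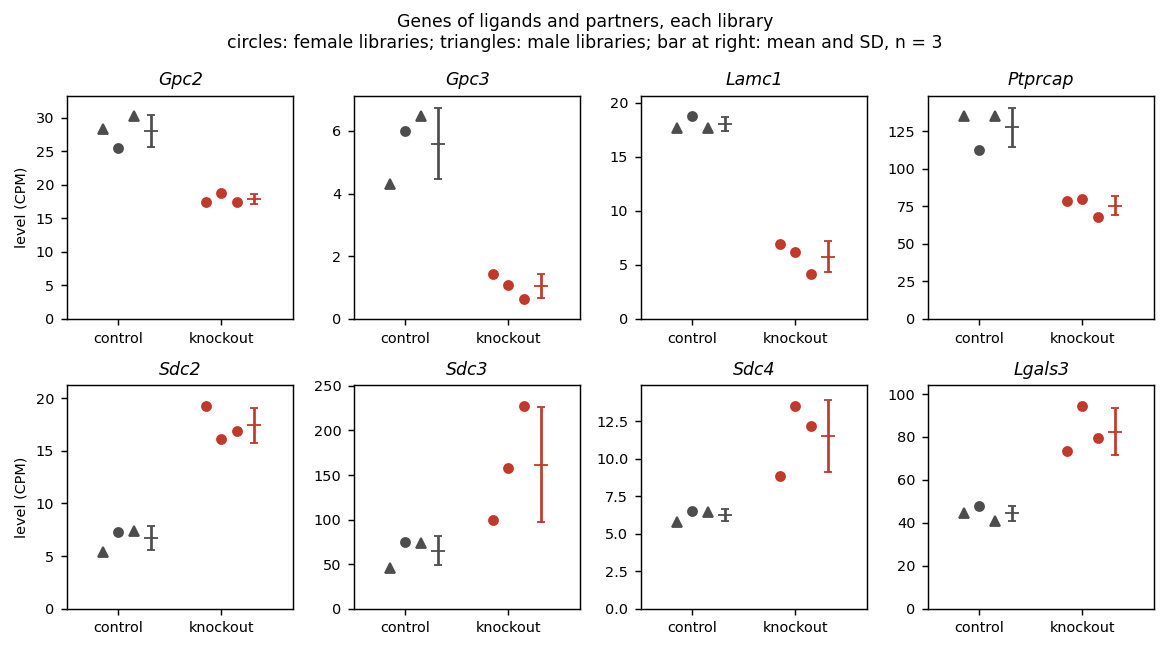
Level in CPM in each library of genes for ligands and partners of the receptors, with circles for female and triangles for male libraries and the mean and SD (n = 3). Sdc2, Sdc3, Sdc4 and Lgals3 are higher and Gpc2, Gpc3, Lamc1 and Ptprcap lower in every knockout library than in any control library.

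Partners inside the cell also split. Liprins and catenins bind the intracellular part of LAR-type receptors. The list of 14 partner genes held these and others, among them Trio, Caskin2 and Enah. Of the 14, 11 were tested, with 2 higher, 2 lower and 7 not past the test. Over all genes tested 3.85% were higher and 4.58% lower. Ctnnd1, p120 catenin, rose from 102.2 ± 2.1 to 134.2 ± 4.3 CPM (0.39 ± 0.06 SE on the log2 scale, adjusted p = 0.00752 by edgeR), and Ppfia4, a liprin, had 0.58 (edgeR adjusted p = 0.0175). Caskin2, a scaffold protein, fell by 0.66 (edgeR adjusted p = 0.0155) and Ctnnb1, beta-catenin, by 0.27 on the log2 scale (edgeR adjusted p = 0.0261). Ppfia1, the most abundant liprin-alpha gene, had −0.01 (edgeR adjusted p = 0.958). Ctnnd1 was past the threshold without any 1 library. The others were not past it without knockout replicates 1 or 2 for Caskin2 (−0.55 to −0.71 over the 6 fits), without knockout replicates 2 or 3 or control replicate 1 for Ppfia4 (0.51 to 0.67), and without any 1 knockout library or control replicates 1 or 2 for Ctnnb1 (−0.26 to −0.28).

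For the partners of the other members, 17 genes were listed and 10 tested, with 2 higher, 1 lower and 7 not past the test. Over all genes tested 8.42% passed. Ptprcap, which encodes a small protein bound to CD45, fell. It had 78.3, 79.9 and 68.0 CPM in knockout and 134.8, 112.4 and 135.1 CPM in control libraries (−0.75 ± 0.09 SE on the log2 scale, adjusted p = 0.00492 by edgeR), against a value of 0.21 for Ptprc itself. Lgals3, galectin-3, a lectin that binds glycans of CD45, rose from 44.4 ± 3.5 to 82.4 ± 10.96 CPM (0.89, edgeR adjusted p = 0.00388). Both were past the threshold without any 1 library. Cd2 (0.90, edgeR adjusted p = 0.0418) had 3.45 to 3.91 CPM against 1.72 to 2.13 CPM, and lost its call in each of those 6 fits (0.84 to 1.01). The contactin genes Cntn3, Cntn4, Cntn5 and Cntn6, ligands of Ptprg, were too low to test.

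Src family kinases are the best known substrates of Ptprc, Ptpra and Ptpre. The list of these kinases and their regulators had 2 of 12 higher and the other 10 short of the threshold (median log2 fold change −0.01). Over all genes tested 3.85% were higher. Lyn, a Src family kinase of blood cells, had 139.2 to 169.0 CPM in knockout and 114.7 to 131.4 CPM in control libraries (0.36, edgeR adjusted p = 0.0432). Lck, of T cells, had −0.70 and did not pass (edgeR adjusted p = 0.0543), while Fyn and Csk had −0.01 each. Lyn held the call in 2 of 6 fits with a library omitted, those without knockout replicate 1 or control replicate 2, and its values ran from 0.29 to 0.43.

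Among 28 tyrosine kinase genes of receptors and their signalling, 24 were tested, of which 1 was higher, 4 were lower and 19 did not pass (median log2 fold change −0.09). Over all genes tested 3.85% were higher and 4.58% lower. Tie1 (−1.06, edgeR adjusted p = 0.00668), Pdgfrb (−1.27, edgeR adjusted p = 0.0139) and Flt3 (−0.67, edgeR adjusted p = 0.0235) were among the lower genes, and Csf1r (0.66, edgeR adjusted p = 0.0318) was higher. Tie1 passed without any 1 library, and the range over the 6 fits was −1.19 to −0.90. Pdgfrb did not pass without knockout replicate 2 (range −1.50 to −1.08), and Flt3 without knockout replicate 2 or control replicate 1 (−0.77 to −0.55). Csf1r did not pass without knockout replicates 2 or 3 or control replicates 1 or 3 (0.54 to 0.83).

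Summed markers of other cells differed between the groups for some lists and overlapped for others. Over all genes tested 3.85% were higher and 4.58% lower in knockout libraries. Summed over the list, 15 monocyte, macrophage and dendritic cell genes had 2605 to 3231 CPM in knockout and 1627 to 2019 CPM in control libraries, with 6 of 15 higher. The 12 neutrophil genes had 7190 to 9211 against 2979 to 5755 CPM, with 5 higher. The 10 megakaryocyte and platelet genes had 208.9 to 316.4 against 358.2 to 492.6 CPM, with 5 of 9 tested lower, and the 8 mast cell and basophil genes 298.5 to 403.9 against 482.7 to 746.4 CPM, with 3 of 6 lower. Erythroblast (530.9 to 1107 against 471.6 to 849.6 CPM, 6 of 12 higher, or 521.4 to 1080 against 470.2 to 846.7 CPM and 5 of 11 with Hba-a1 and Hba-a2, whose reads are identical in every library, counted once), B and plasma cell (649.2 to 853.7 against 472.7 to 724.8 CPM, 1 of 11 higher and 1 lower), T and NK cell (269.2 to 332.9 against 219.4 to 298.2 CPM, 1 of 10 lower) and stroma and endothelium genes (203.3 to 261.4 against 231.3 to 245.9 CPM, 2 of 7 lower) overlapped in their sums. Marco, among the 6 monocyte and macrophage genes called, and Ppbp, among the 5 megakaryocyte and platelet genes called, reached the filter on low counts in 1 group alone. Lum, of stroma, had no read in any library. The part of these cell types in the values of Ptprf, Ptpro and the other members was not tested.

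By pattern over the 6 libraries, the genes most like Ptprf among 11550 compared were Prkag2, Plxdc2, Mphosph9, Lpar2, Bex1 and Rnps1, with Pearson r of 0.997, 0.996, 0.995, 0.992, 0.990 and 0.989 on log2 CPM. These values describe likeness over libraries that fall into the same 2 groups. The measure takes shape and not size, and of the 6 only Bex1 had a difference near that of Ptprf (0.90, 0.69 and 0.88 CPM in knockout against 3.26, 5.54 and 6.89 CPM in control libraries, log2 fold change −2.68). The other 5 ran from −0.46 (Lpar2) to −0.10 (Rnps1).

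Sex and group could be separated only through control replicate 2. With a term for sex, 43 of all genes passed, 0.314% of those tested (0.0512% higher and 0.263% lower). In the same fit 0 of the 8 tested members passed (edgeR, no other tool run with this term). Ptprf is counted there as a limit and not as a test. Of the genes named here as past the threshold, other than Ptprf and Agrn, which was not refitted, the lowest adjusted p with that term was 0.0546 (edgeR), for Lamc1. Among these, Pdgfrb (−0.65), Flt3 (−0.45), Csf1r (0.39) and Lyn (0.24) moved by over 1.5 times toward 0 on the log2 scale. The log2 fold changes of the members kept their sign, at −2.91 for Ptprf, 0.81 for Ptpro, 1.42 for Ptprm, 0.38 for Ptprj, 0.13 for Ptprc, −0.22 for Ptprs, −0.13 for Ptpre and −0.02 for Ptpra. The plot of settings places these beside every other fit.

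**Figure D5:**
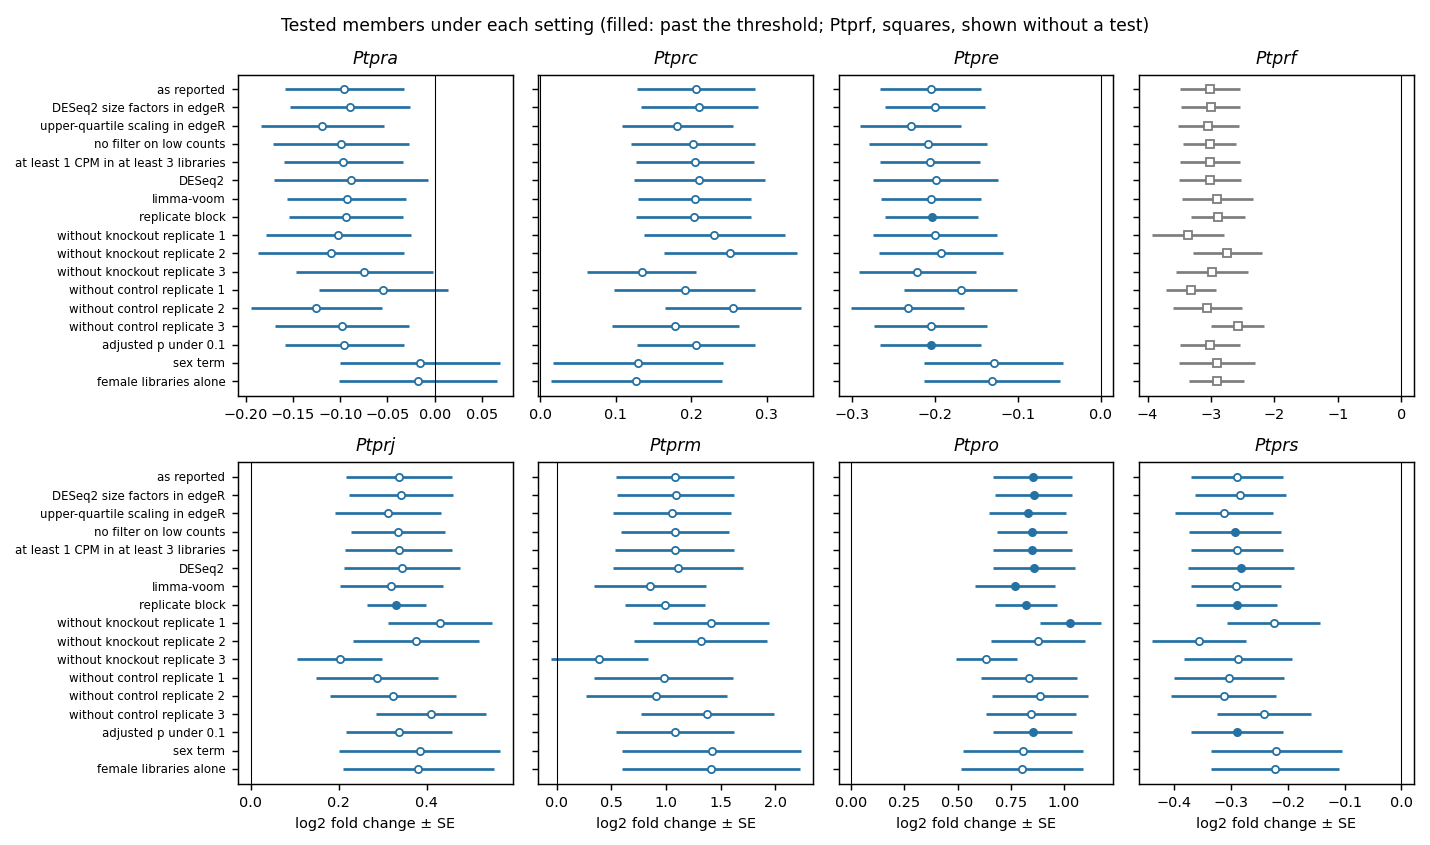
Log2 fold change with its SE of the 8 tested members under the reported fit and each of 16 alternatives, on a separate horizontal axis for each gene, filled where past the threshold, with Ptprf as squares without a test. No point crosses 0, and Ptpro is filled in the reported fit and 9 of the 16 alternatives.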

How the data were processed

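Total RNA of sorted LSK cells was poly(A)-selected and made into directional libraries, per the labels' protocols. The authors deposited raw read counts per gene symbol, as whole numbers without normalization. STAR and mm10 are named in the submitters' processing notes, and the sources used here do not give the STAR version, counting tool, annotation or strand setting. Of 24063 symbols, 4092 had no read. Pairs of libraries differed by more than sampling noise (chi-square of at least 10.18 per degree of freedom).

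The test across genes was edgeR 4.0.16 under R 4.3.3 (filterByExpr with a minimum count of 10 and a minimum total of 15, TMM scaling, quasi-likelihood F test, group as the sole term). This left 13679 symbols, with Benjamini-Hochberg adjustment over all of them and a threshold of 0.05. CPM values use the TMM-scaled library size. Levels per kb use the longest coding transcript of GENCODE M21, in which all 21 family symbols matched. Lists are described by counts and medians, without a set test.

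The members and gene lists were chosen with earlier results of these data known. Named genes are the members, the other receptor phosphatases, up to 6 genes past the threshold with the smallest p in each list, the 6 genes of at least 1 log2 CPM most correlated with Ptprf (log2 CPM with a prior count of 2, passing over predicted models, pseudogenes and sex-linked genes), Arid2, Kit and Ly6a. Some genes that this rule names are not reported here. Agrn and the genes named as not past the test were chosen after their values were seen. Sex was read from Xist and Y-linked genes. Alternatives were other scalings and filters, DESeq2 1.42.0, limma-voom (limma 3.58.1), a replicate block, each library left out, an adjusted p under 0.1, a sex term and female libraries alone. Intervals and floors cover the spread between libraries or counting error as stated.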

Additional observations from a re-analysis of the deposited data

How the results depend on the processing

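Over 15 refits the 7 tested members other than Ptprf kept their direction in all 105 values, and 93 also kept their side of the threshold. Without Ptprf, which was chosen for its change, 1 member was past the threshold as reported, 4 with the replicate block (Ptpre, Ptprj, Ptpro and Ptprs) and 3 at an adjusted p under 0.1. Also leaving Ptprf out, 0 members were past it with a sex term (edgeR), and 0 to 1 with a library left out. Other receptor phosphatases past the threshold numbered 2 as reported, 1 with at least 1 CPM in at least 3 libraries, where Ptprr was not tested, and 0 with a sex term or in female libraries alone, and ran from 0 to 2 with a library left out. All genes past it numbered 1152 as reported, 2172 with the replicate block, 2002 at an adjusted p under 0.1, 43 with a sex term, 39 in female libraries alone and 290 to 984 with a library left out. The reported fit did not take the replicate numbers as pairs. Libraries of the same number correlated at 0.29, −0.0048 and 0.34 in their deviations from the group means. Knockout replicate 1 with control replicate 3 had −0.33, and knockout replicate 3 with control replicate 1 had −0.31. Knockout replicate 2 had 0.029, −0.0048 and −0.024 with control replicates 1, 2 and 3. Whether libraries of the same number share a batch was not tested. Ptprv ran from −0.230 to 0.0106 with a library left out, turning positive without knockout replicate 2. Arid2, at 0.00, turned to −0.0217 with upper-quartile scaling and −0.0017 with no filter, and ran from −0.0323 to 0.0441 with a library left out. The causes were not tested. Depth limits Ptprf, Ptprg, Ptprk and Ptprm, whose counts fell to 7, 0, 5 and 11 reads in a library.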
